A study of Rattus norvegicus with 25 samples.

Results

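Hippocampal gene expression after brain injury and a thymus supplement (TD-CCI) was compared with that after a sham operation (Vehicle-sham). The members were the 5 TD-CCI and the 5 Vehicle-sham libraries, taken by their sample labels, 10 of 25 libraries in the series. All animals were adult male Sprague-Dawley rats from Charles River, 6 to 7 weeks old, and polyA RNA of the hippocampus was sequenced. TD-CCI rats had controlled cortical impact (CCI) and the supplement that the labels call thymus, abbreviated TD. Vehicle-sham rats had neither the impact nor a supplement and were given vehicle. From these 10 libraries alone, what the injury did and what the supplement did cannot be told apart. The other 15 libraries were Vehicle-CCI, the injury with vehicle only, and TCF-CCI and TNF-CCI, the injury with a cytosolic or a nuclear thymus factor. The sources used here give no dose, no interval between impact and dissection and no hemisphere. No label states that every library is an animal of its own, and the p-values thus rest on library-to-library spread, which may be technical.

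In CCI a piston strikes the exposed cortex above the hippocampus. Microglia, the resident phagocytes of the brain, and macrophages that enter from blood clear debris with lysosomal enzymes, and astrocytes thicken their intermediate filaments and secrete complement and protease inhibitors. Fibroblasts and vessel cells lay down collagen and fibronectin at a lesion. In neurons, activity switches on immediate early genes, which encode transcription factors and synaptic proteins. In bulk tissue, fewer cells of a type and less RNA per cell cannot be told apart.

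Sequencing depth was similar in both groups, with 27.3 to 33.7 M counts per library (M, 1e6) in Vehicle-sham and 29.2 to 38 M in TD-CCI. Among these libraries, Vehicle-sham 2, Vehicle-sham 3 and TD-CCI 4 stood apart. Vehicle-sham 2 had 25.6% of its counts on the 2 mitochondrial ribosomal RNA genes, and Vehicle-sham 3 had 17.3%, against 2.18% to 6.58% in the other 3 sham libraries and 5.56% to 7.93% in TD-CCI. The group means were 6.59 ± 0.93% in TD-CCI and 11.6 ± 9.62% in Vehicle-sham (SD, n = 5 each; exact two-sided permutation test over libraries, p = 0.373, where 0.00794 is the smallest p that this design allows). Of the sensory receptor genes for smell, pheromones and taste, which brain tissue hardly uses, 623 had counts in Vehicle-sham 2 and 323 in Vehicle-sham 3, against 120 to 142 in the other 3 sham libraries and 131 to 225 in TD-CCI. Their summed level did not set these libraries apart. Per 1e6 counts it was 93.8 in Vehicle-sham 2 and 78.9 in Vehicle-sham 3. In the other 3 sham libraries it was 64.7 to 86.1, and in TD-CCI 61.8 to 133. In pairwise comparison of counts, the chi-square per degree of freedom was 185 to 417 between Vehicle-sham 3 and Vehicle-sham 1, 4 and 5, 460 to 732 between Vehicle-sham 2 and these 3, and 38.5 to 90 among the 3. Vehicle-sham 2 was the highest of the 10 libraries in 26.5% of the genes and the lowest in 36.5%. The median SD of log2 CPM (TMM-scaled counts out of every 1e6 in a library) was 0.43 within Vehicle-sham, 0.25 without that library and 0.24 within TD-CCI. TD-CCI 4 held RNA of genes that the other 9 libraries had at low levels, described below. The 10 marker genes of hippocampal identity were detected in both groups, with summed levels of 957 to 1350 CPM in Vehicle-sham and 806 to 1120 CPM in TD-CCI.

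Across all expressed genes the differences between TD-CCI and sham leaned upwards in the innate immune, astrocyte and matrix genes and downwards in immediate early and excitatory synapse genes, and few single genes passed the tests. Genes of cholesterol synthesis and nuclear genes of oxidative phosphorylation leaned downwards too, the latter by less without Vehicle-sham 2 and 3. With all 25 libraries in 1 edgeR fit, 0 of 21064 genes passed at an adjusted p under 0.05 (0%). At an unadjusted p under 0.05, 1440 genes were higher (6.84%) and 2034 lower (9.66%). A log2 fold change past 1 was seen for 668 genes on the higher side (3.17%) and 463 on the lower side (2.2%). The 5 TD-CCI libraries lay wholly above the 5 sham libraries in 498 genes (2.36%) and wholly below them in 182 (0.864%). The smallest adjusted p was 0.0533, shared by Sulf1, Aplnr and Col1a1.

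When only the 10 libraries were fitted, so that the spread within the other CCI groups did not enter, edgeR called 137 of 19591 genes higher (0.699%) and 2 lower (0.0102%). The 2 lower genes were Nr4a3 and Ano3. The higher genes had a median log2 fold change of 1.45, from 0.62 to 5.62, and 134 of them had no overlap between the groups. Their median level was 11.6 CPM in TD-CCI and 3.96 CPM in Vehicle-sham, and 34 belonged to the gene lists used below. The share of all tested genes that these lists hold was not counted. The lists were chosen with earlier results of these data known, so the 34 is a description only. Without Vehicle-sham 2 the same fit called 236 genes higher (1.19%) and 7 lower (0.0353%) of 19818. Of the 139 genes called on the 10 libraries, 134 were called again without Vehicle-sham 2 (96.4% of the 139, 55.1% of the 243), and 103 without TD-CCI 4 (74.1% of the 139, 80.5% of the 128). In the authors' deposited table of TD-CCI over control, 428 of 21763 genes with an adjusted p had a value under 0.05 on the higher side (1.97%) and 81 on the lower side (0.372%). All 139 genes were among those 509 (27.3% of the 509). The deposited table is of the same series, with log2 fold changes near those computed here, so this overlap is no independent support.

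**Figure D1:**
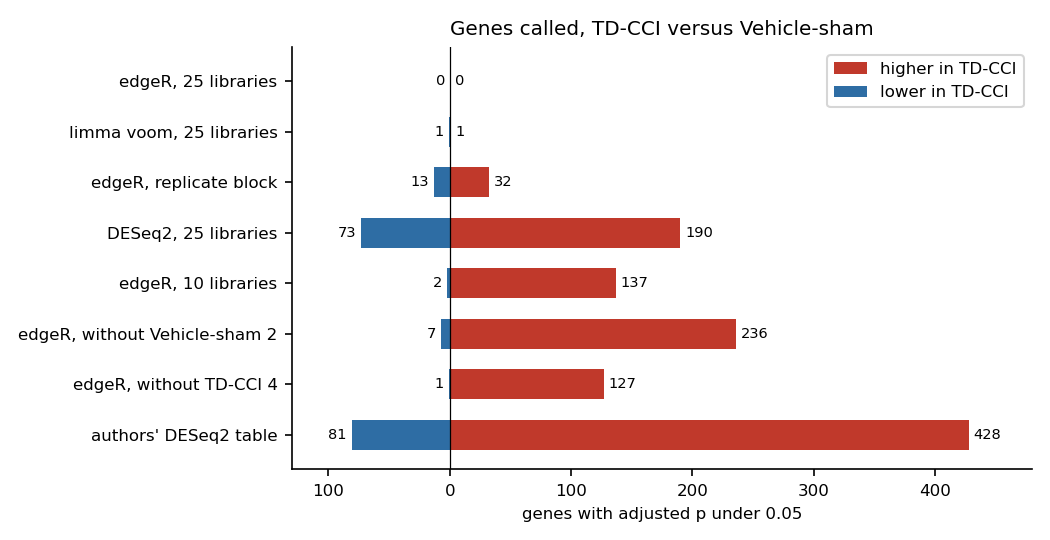
Number of genes at an adjusted p under 0.05 in TD-CCI over Vehicle-sham (horizontal axis), higher to the right in red and lower to the left in blue, for 7 fits and the authors' deposited DESeq2 table. The fit of all 25 libraries with edgeR called 0 genes and the fit of 10 libraries 137 higher and 2 lower, and in each fit with over 2 calls more genes were higher than lower. The bars without Vehicle-sham 2 or TD-CCI 4 leave that library out of the 10.

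Genes of phagocytic microglia were among those furthest from sham. Gpnmb, a glycoprotein of lysosome-rich phagocytes (chromosome 4, 78010247 to 78031491 on mRatBN7.2), was at 69.8, 48, 62.5, 44.4 and 75.8 CPM in TD-CCI 1 to 5 and at 4.53, 3.64, 2.44, 4.7 and 12.2 CPM in Vehicle-sham 1 to 5. The groups did not overlap, and Vehicle-sham 5 was the highest sham library. The means were 60.1 ± 13.6 and 5.5 ± 3.85 CPM (SD, n = 5 each), and the log2 fold change was 3.44 ± 0.72 (SE). The edgeR adjusted p was 0.124 with all 25 libraries and 0.00223 with the 10. Cd68, a lysosomal membrane glycoprotein (chromosome 10, 54381814 to 54383693), was at 10.0, 5.7, 5.46, 4.53 and 8.26 CPM in TD-CCI 1 to 5 and at 1.72, 0.626, 1.31, 0.946 and 1.95 CPM in Vehicle-sham 1 to 5. Every TD-CCI library was above every sham library, and TD-CCI 1 was the highest. Its log2 fold change was 2.35 ± 0.57, with an edgeR adjusted p of 0.151 with 25 libraries and 0.00919 with 10.

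The upstream sequences of these 2 genes are shown because both were far above sham and both hold a binding motif of AP-1, the Fos and Jun family of transcription factors. RefSeq promoters on GRCr8 were searched for TGANTCA on both strands (the motif reads the same on each) in the 250 bases before the start, and the 220 bases next to the start are printed 5′ to 3′ on the gene's strand, with the motif in capitals. Gpnmb lies on the plus strand (chr4:79340908-79341127) and its motif began 87 bases before the start. Cd68 lies on the minus strand (chr10:54882442-54882661) and its motifs began 205 and 80 bases before the start.
Gpnmb: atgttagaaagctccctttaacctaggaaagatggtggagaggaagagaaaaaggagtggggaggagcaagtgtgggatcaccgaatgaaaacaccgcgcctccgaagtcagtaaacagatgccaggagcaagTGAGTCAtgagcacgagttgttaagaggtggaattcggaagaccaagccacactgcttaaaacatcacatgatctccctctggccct
Cd68: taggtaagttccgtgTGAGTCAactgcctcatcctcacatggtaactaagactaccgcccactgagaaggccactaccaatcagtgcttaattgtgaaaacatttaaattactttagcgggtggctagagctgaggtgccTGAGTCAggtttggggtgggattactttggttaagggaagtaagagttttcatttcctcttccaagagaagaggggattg
Of the 137 higher genes, 95 had a promoter in the table and 6 of these held the motif (6.32%), near the 5.45% of the 14684 tested genes with a promoter. The match is a description of the letters and not a binding site.

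Spp1 encodes osteopontin, a secreted phosphoprotein of activated phagocytes. It was at 36.2, 35.2, 12.1, 32.7 and 4.54 CPM in TD-CCI 1 to 5 and at 1.42, 1.54, 1.73, 2.28 and 3.62 CPM in sham. TD-CCI 5 lay just above the highest sham library, Vehicle-sham 5, and TD-CCI 1, 2 and 4 were the high libraries. The log2 fold change was 3.49 ± 0.79 (edgeR adjusted p = 0.134 with 25 libraries, 0.0118 with 10). Lilrb4, an inhibitory receptor of myeloid cells, had the largest log2 fold change among the genes without overlap, 5.61 ± 1.29 (edgeR adjusted p = 0.137 with 25 libraries, 0.0109 with 10). It was at 11.3, 8.67, 5.02, 0.439 and 7.23 CPM in TD-CCI 1 to 5 and at 0.331, 0.114, 0.0752, 0.0978 and 0.0295 CPM in sham, so that TD-CCI 4 was barely above Vehicle-sham 1. Clec7a, a receptor for fungal glucans on myeloid cells, ran from 4.83 to 24.5 CPM in TD-CCI and from 0.326 to 2.96 CPM in sham (3.48 ± 0.89), and without Vehicle-sham 2, its highest sham library, its log2 fold change was 4.29. The galectin Lgals3 ran from 12.9 to 37.4 CPM against 1.65 to 10.1 CPM (2.65 ± 0.66). The potassium channel Kcnn4 of immune cells was at 3.03 ± 0.75 and the NADPH oxidase subunit Ncf1 at 2.24 ± 0.54, both without overlap.

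Of 21 tested genes of the microglia activation list, 12 were higher and 1 lower at an unadjusted p under 0.05, 10 lay wholly above sham, and the median log2 fold change was 0.98, against 0.01 for all genes tested. The counts of each list are to be read beside the shares over all genes. These were 6.84% higher and 9.66% lower at that threshold, and 2.36% wholly above and 0.864% wholly below sham. On the 10 libraries 0.699% were called higher. Of the microglia activation list 7 genes passed on the 10 libraries, Cd68, Gpnmb, Spp1, Lgals3, Trem2, Clec7a and Axl, and 12 passed without Vehicle-sham 2. The lower member was the lipoprotein lipase Lpl. The list includes genes of lipid handling and lysosomes that other cells express too, and its summed level overlapped, at 2800 to 4450 CPM in TD-CCI and 1990 to 4280 CPM in sham. Markers of resting microglia were higher as well, with 6 of 11 at an unadjusted p under 0.05 and a median of 0.59. Csf1r, the receptor that keeps microglia alive, was at 137, 106, 99.6, 95 and 99.3 CPM in TD-CCI 1 to 5 and at 39, 21.8, 34.9, 35.6 and 63.6 CPM in sham. TD-CCI 2 to 5 lay close together, TD-CCI 1 was above them, and no library overlapped. Its log2 fold change was 1.46 ± 0.35 (edgeR adjusted p = 0.151 with 25 libraries, 0.0143 with 10). The fractalkine receptor Cx3cr1 (1.05 ± 0.32) passed on the 10 libraries as well (edgeR adjusted p = 0.0378, 0.0759 on 9 without TD-CCI 4). The summed level of the list was 426 to 553 CPM in TD-CCI and 260 to 411 CPM in sham, without overlap.

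**Figure D2:**
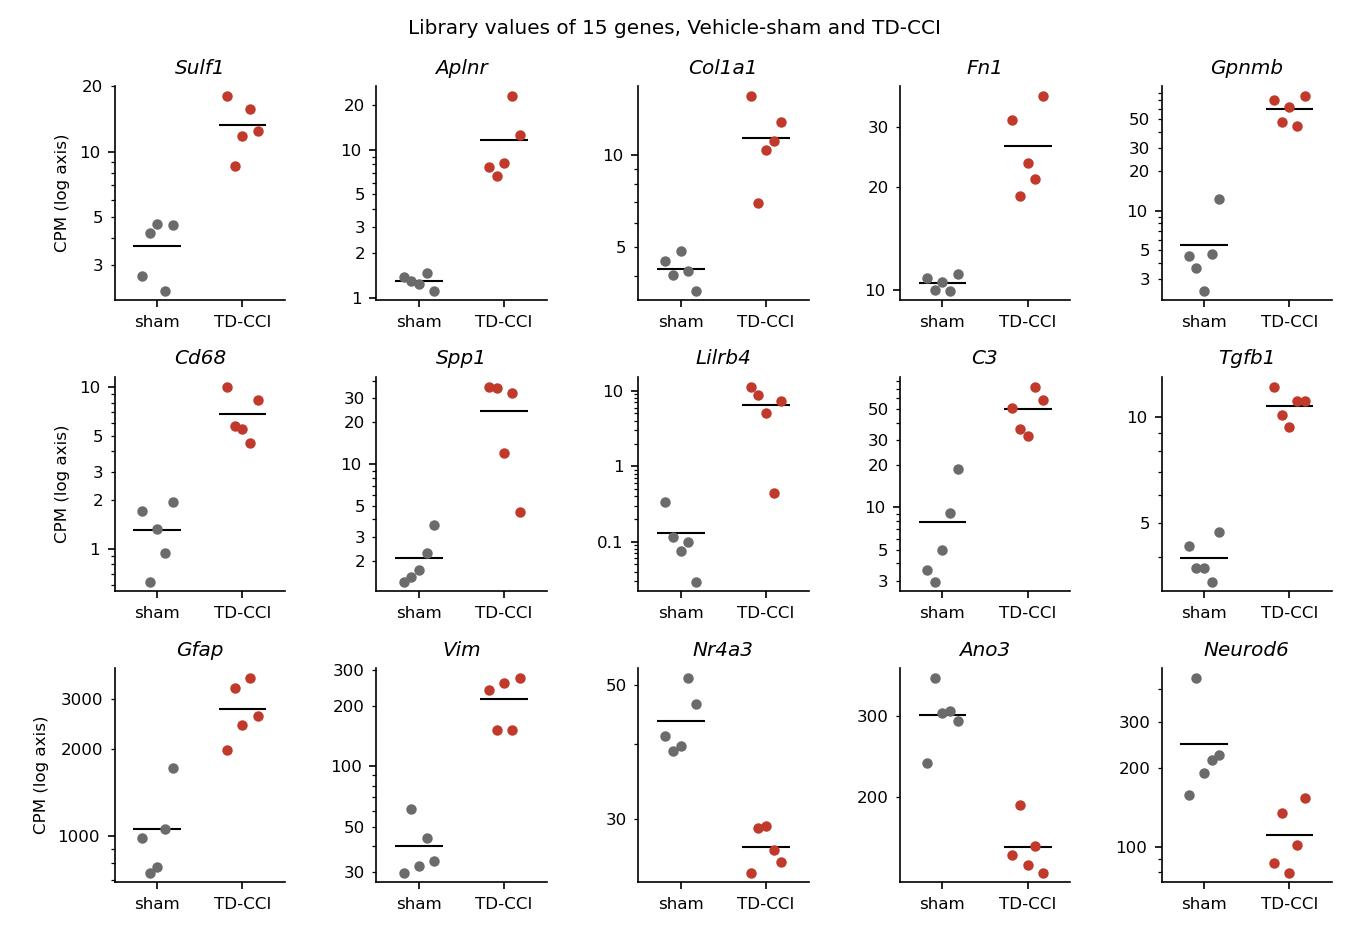
Level of 15 genes in each library (points; CPM after TMM scaling, log axes) for Vehicle-sham in grey and TD-CCI in red, in the order of the library numbers from left to right, with group means as black lines. The groups do not overlap in any of the 15 genes, of which Nr4a3, Ano3 and Neurod6 were lower in TD-CCI and the others higher.

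Complement and its receptors were higher in the TD-CCI libraries. C3, on which all complement pathways converge (chromosome 9, 2087437 to 2114366), was at 51, 36.1, 32.5, 72.3 and 58.2 CPM in TD-CCI 1 to 5 and at 3.61, 2.96, 5, 9.19 and 18.9 CPM in sham. Vehicle-sham 5 was the highest sham library, and every TD-CCI library lay above it. The log2 fold change was 2.64 ± 0.54 (edgeR adjusted p = 0.112 with 25 libraries, 0.0254 with 10). C2, a protease of the classical pathway, averaged 22.6 ± 3.34 CPM in TD-CCI and 7.12 ± 3.37 CPM in sham (SD, n = 5 each; 1.66 ± 0.37), again with Vehicle-sham 5 as the highest sham library, at 13 CPM. Itgb2, the shared beta chain of the leukocyte integrins and of complement receptor 3, was at 14.9, 12.6, 12.1, 14.3 and 17.1 CPM in TD-CCI 1 to 5 and at 2.85, 2.28, 1.88, 3.06 and 5.07 CPM in sham (2.22 ± 0.50; edgeR adjusted p = 0.134 with 25 libraries, 0.00223 with 10). Of 20 complement genes, 13 were higher and 0 lower at an unadjusted p under 0.05, and 7 lay wholly above sham, with a median of 0.88. Over all genes these shares were 6.84%, 9.66% and 2.36%. On the 10 libraries C1s, C2, C3, Itgb2 and Serping1, the inhibitor of C1, passed, of which C1s did not without TD-CCI 4 (edgeR adjusted p = 0.0513 on 9).

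Cytokine and MHC class II genes were higher with less separation between libraries. Of 27 cytokine and chemokine genes 11 were higher at an unadjusted p under 0.05 (median 0.84), and Tgfb1 alone passed on the 10 libraries. Tgfb1, a cytokine that restrains inflammation and drives matrix deposition, was at 12.2, 10.2, 9.4, 11.1 and 11.1 CPM in TD-CCI 1 to 5 and at 4.3, 3.7, 3.72, 3.39 and 4.71 CPM in sham. Both groups were tight and far apart (1.44 ± 0.39; edgeR adjusted p = 0.151 with 25 libraries, 0.00223 with 10). Its receptor subunit Tgfbr2 was at 1.19 ± 0.31 (edgeR adjusted p = 0.00825 with 10). All 9 tested MHC class II genes, of antigen presentation, had a log2 fold change above 0 (median 0.85), 4 at an unadjusted p under 0.05 and 1 without overlap. That gene, the invariant chain Cd74, was at 52, 22.4, 23.8, 64.5 and 28 CPM in TD-CCI 1 to 5 and at 7.25, 5.01, 2.48, 9.03 and 18.7 CPM in sham (2.16 ± 0.68, edgeR adjusted p = 0.0633 with 10). Vehicle-sham 5 came close to TD-CCI 2, the lowest of its group. Cd4, which rat microglia and macrophages carry as well as helper T cells, was at 25.2, 11.1, 13.4, 9.74 and 24.9 CPM in TD-CCI 1 to 5 and at 4.27, 2.56, 1.8, 3.23 and 5.16 CPM in sham (2.30 ± 0.50, edgeR adjusted p = 0.0118 with 10). Cd8a was low in both groups, 0.22 to 1.18 CPM against 0 to 0.165 CPM (2.98 ± 0.77). MHC class I genes had 0 higher and 1 lower of 17 at an unadjusted p under 0.05 (median 0.2), and interferon response genes 2 higher and 0 lower of 24 (median 0.3, and -0.0429 without Vehicle-sham 2 and 3). Of 6 tested lymphocyte markers 2 were higher and 0 lower at an unadjusted p under 0.05, with a median of -0.29 (0.31 without Vehicle-sham 2), and of 6 tested neutrophil markers 1 was higher and 2 lower, with a median of -0.26. The 13 lymphocyte markers summed to 3.14 to 5.54 CPM in TD-CCI and 3.12 to 8.2 CPM in sham, and the 9 neutrophil markers to 10.5 to 22.8 CPM and 7.37 to 13.9 CPM. No lymphocyte or neutrophil marker of these lists was at 0 in all 10 libraries, and the part of blood cells in the immune gene levels was not tested.

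Reactive astrocyte genes had a median of 1.12, the highest of the 54 lists with all libraries. Without Vehicle-sham 2 it was 1.05, below MHC class II (1.21) and microglia activation (1.11). All 22 had a log2 fold change above 0, 14 were higher at an unadjusted p under 0.05, and 9 lay wholly above sham. Gfap, the intermediate filament protein of astrocytes, was at 1992, 3262, 2425, 3550 and 2616 CPM in TD-CCI 1 to 5 and at 978, 743, 780.1, 1057 and 1714 CPM in sham. TD-CCI 1, the highest library in many microglial genes, was the lowest TD-CCI library here, and it still lay above Vehicle-sham 5. The log2 fold change was 1.39 ± 0.39 (edgeR adjusted p = 0.153 with 25 libraries, 0.0378 with 10, 0.0756 on 9 without TD-CCI 4). Vim, a second intermediate filament protein, was at 239, 151, 259, 152 and 275 CPM in TD-CCI 1 to 5 and at 29.6, 61.2, 31.9, 44.2 and 33.7 CPM in sham (2.42 ± 0.55; edgeR adjusted p = 0.134 with 25 libraries, 0.00266 with 10). A2m, a broad protease inhibitor (chromosome 4, 154897770 to 154947787), was at 151, 81.7, 133, 176 and 127 CPM in TD-CCI 1 to 5 and at 22.7, 30.3, 23.2, 22.6 and 34.9 CPM in sham. The gap between the lowest TD-CCI and the highest sham library was wide in both A2m and Vim. The A2m log2 fold change was 2.32 ± 0.45 (edgeR adjusted p = 0.112 with 25 libraries, 0.00221 with 10). The ferroxidase Cp (1.94 ± 0.52) was the other member of the list to pass on the 10 libraries (edgeR adjusted p = 0.0275). Summed levels of the list were 2730 to 4090 CPM in TD-CCI and 970 to 1930 CPM in sham. The 16 genes of resting astrocytes had a median of 0.17, with 1 gene at an unadjusted p under 0.05, and their level in TD-CCI 4 was 0.73 above the sham mean on the log2 scale, against at most 0.15 in the other TD-CCI libraries.

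Several matrix and vessel genes lay wholly above sham, and Aplnr, Col1a1 and Fn1 varied little within sham. Sulf1, a sulfatase that trims heparan sulfate outside the cell (chromosome 5, 6362896 to 6526174), was at 18.1, 8.58, 11.9, 15.7 and 12.4 CPM in TD-CCI 1 to 5 and at 2.68, 4.21, 4.66, 2.28 and 4.57 CPM in sham. The lowest TD-CCI library, TD-CCI 2, lay above the highest sham library. Its log2 fold change was 1.86 ± 0.31 (edgeR adjusted p = 0.0533 with 25 libraries, 0.0108 with 10). Aplnr, the receptor of the vessel peptide apelin (chromosome 3, 70217407 to 70221052), was at 7.6, 6.68, 8.16, 23.1 and 12.5 CPM in TD-CCI 1 to 5 and at 1.39, 1.31, 1.24, 1.47 and 1.12 CPM in sham. The sham libraries lay within a narrow band, and TD-CCI 4 was the highest of all 10 (3.15 ± 0.56; 2.74 without TD-CCI 4; edgeR adjusted p = 0.0533 with 25 libraries, 0.00223 with 10). Col1a1, the first chain of type I collagen (chromosome 10, 79883622 to 79900625), was at 15.6, 6.96, 10.3, 11.1 and 12.8 CPM in TD-CCI 1 to 5 and at 4.5, 4.04, 4.85, 4.17 and 3.6 CPM in sham. TD-CCI 1 was the highest and TD-CCI 2 the lowest of its group, and no library overlapped (1.42 ± 0.25; edgeR adjusted p = 0.0533 with 25 libraries, 0.0118 with 10). Fibronectin Fn1 was at 31.6, 18.9, 23.6, 21.1 and 37.1 CPM in TD-CCI 1 to 5 and at 10.8, 9.96, 10.5, 9.94 and 11.1 CPM in sham (1.34 ± 0.26; edgeR adjusted p = 0.112 with 25 libraries, 0.00948 with 10). The second type I collagen chain Col1a2 (1.49 ± 0.35) overlapped in 1 pair of libraries, with TD-CCI 2 at 11.2 CPM and Vehicle-sham 2 at 11.4 CPM. Col3a1, of type III collagen, was at 57.4, 9.34, 10.8, 11.2 and 13.9 CPM in TD-CCI 1 to 5, so that TD-CCI 1 stood far above the rest of its group, and ran from 3.81 to 6.83 CPM in sham (2.04 ± 0.46).

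Of 25 fibroblast and matrix genes, 24 had a log2 fold change above 0, 12 were higher at an unadjusted p under 0.05, 6 lay wholly above sham, and the median was 0.66. Col1a1, Col1a2, Fn1 and the proteoglycan Bgn passed on the 10 libraries, and Col1a2 did not without TD-CCI 4 (edgeR adjusted p = 0.0485 with 10, 0.0856 on 9). Among 13 metalloproteinases and inhibitors 8 were higher at an unadjusted p under 0.05 and 7 lay wholly above sham (median 0.82), and the gelatinase Mmp2 (1.17 ± 0.26) and Adamts1, which cleaves proteoglycans, passed on the 10 libraries. Without TD-CCI 4 Mmp2 did not pass (edgeR adjusted p = 0.0556 on 9). Mmp14, which activates Mmp2 at the cell surface, ran from 9.94 to 15.6 CPM against 5.61 to 9.87 CPM (0.88 ± 0.26). The macrophage elastase Mmp12 was near 0 in sham, 0 to 0.0652 CPM, and ran from 0.137 to 3.67 CPM in TD-CCI. The secreted matrix protein Aebp1 (1.80 ± 0.37) and the metalloprotease Adam33 (2.67 ± 0.65) also had no overlap. Of 21 endothelial genes 10 were higher and 1 lower at an unadjusted p under 0.05 (median 0.65), and Cdh5, the cadherin of endothelial junctions, passed on the 10 libraries at 5.43, 3.01, 4.73, 6.2 and 6.3 CPM in TD-CCI 1 to 5 and 2.88, 2.11, 2.25, 2.41 and 2.42 CPM in sham. TD-CCI 2 lay just above Vehicle-sham 1 (1.08 ± 0.33, edgeR adjusted p = 0.0499 with 10, 0.0508 on 9 without Vehicle-sham 2, 0.0964 on 9 without TD-CCI 4). The endothelial adhesion molecule Pecam1 (0.81 ± 0.27) had no overlap, the angiopoietin receptor Tek (0.65 ± 0.18) overlapped, and the lower member was the sialomucin Emcn. Nid1, which links laminin to collagen in basement membranes, was at 0.83 ± 0.21 without overlap. The 13 genes of pericytes and smooth muscle summed to 117 to 150 CPM in TD-CCI and 93.4 to 148 CPM in sham (median 0.14), and the 11 choroid plexus genes to 20.7 to 96.2 CPM and 27.9 to 409 CPM. Ttr, the transthyretin of choroid plexus, was at 54.3, 6.55, 7.34, 7.55 and 12.3 CPM in TD-CCI 1 to 5 and at 351, 185, 16.4, 10.7 and 14.6 CPM in sham. TD-CCI 1, Vehicle-sham 1 and Vehicle-sham 2 thus held more of it than the other 7 libraries, and its part in the matrix gene levels was not tested.

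Lysosomal genes were higher by small amounts in most members. Of 27, 18 were higher and 0 lower at an unadjusted p under 0.05, 11 lay wholly above sham, and the median was 0.55. Summed levels were 2540 to 3390 CPM in TD-CCI and 1800 to 2370 CPM in sham, without overlap. Laptm5, a lysosomal membrane protein of blood lineage cells, was at 36.8, 28.6, 25.6, 30.9 and 26.9 CPM in TD-CCI 1 to 5 and at 11.2, 14.3, 7.52, 9.42 and 15 CPM in sham. All TD-CCI libraries were above the highest sham library (1.37 ± 0.33; edgeR adjusted p = 0.151 with 25 libraries, 0.0118 with 10). The sulfatase Galns (0.97 ± 0.26) and the protective protein Ctsa (0.69 ± 0.18) did not overlap, and Vehicle-sham 2 was the lowest library in both. On the 10 libraries 2 lysosomal genes passed, and 9 without Vehicle-sham 2. In the sterol uptake and export list 7 of 14 genes were higher at an unadjusted p under 0.05 (median 0.4). Abca1, which loads cholesterol onto apolipoproteins, was at 212, 183, 190.3, 122 and 159 CPM in TD-CCI 1 to 5 and at 69.1, 58.6, 85.2, 65.3 and 72.7 CPM in sham. TD-CCI 4 was the lowest of its group and still above every sham library (1.30 ± 0.33; edgeR adjusted p = 0.151 with 25 libraries, 0.00908 with 10). Lcat, the enzyme that esterifies cholesterol in lipoproteins, was at 33.5, 23.3, 31.3, 85.4 and 25 CPM in TD-CCI 1 to 5 and at 12.8, 9.45, 14.3, 10.9 and 13.4 CPM in sham. TD-CCI 4 stood far above the others, and the log2 fold change was 1.70 ± 0.36 with it and 1.21 without it. Of 19 cholesterol synthesis genes 0 were higher and 7 lower at an unadjusted p under 0.05, 0 of them without overlap (median -0.29, and -0.44 without TD-CCI 4). The HMG-CoA synthase Hmgcs1 was at 136, 139, 128, 234 and 203 CPM in TD-CCI 1 to 5 and at 238, 589.6, 232, 245 and 223 CPM in sham, and its log2 fold change of -0.86 was -0.45 without Vehicle-sham 2. The isomerase Idi1 likewise went from -1.03 to -0.56.

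**Figure D3:**
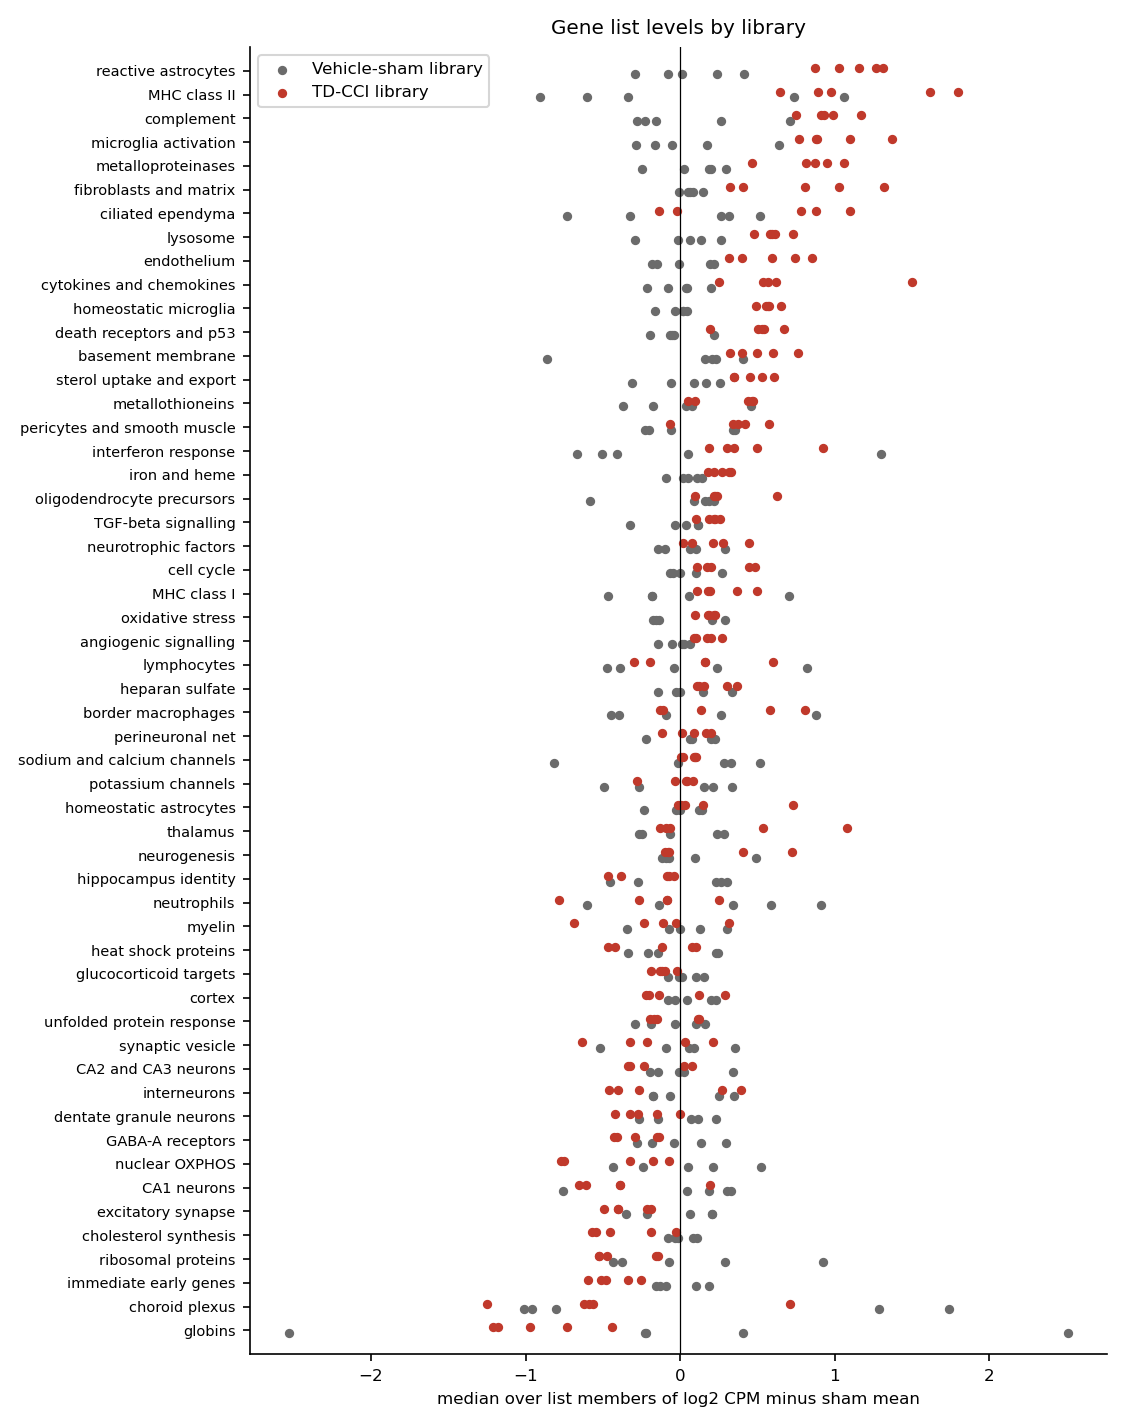
Level of 54 gene lists in each library, as the median over list members of log2 CPM minus the sham mean of each gene (horizontal axis), for Vehicle-sham in grey and TD-CCI in red, ordered by the TD-CCI median. Reactive astrocyte, complement, microglia, lysosome and matrix lists lie to the right of sham in all 5 TD-CCI libraries, and immediate early genes to the left.

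Among neuronal genes the immediate early genes stood lowest, with a median of -0.57. Of 15, 6 were lower and 1, Fos, higher at an unadjusted p under 0.05, and 4 lay wholly below sham. Nr4a3, an orphan nuclear receptor switched on by activity (chromosome 5, 62361588 to 62401489), was at 24.4, 29, 29.2, 26.6 and 25.4 CPM in TD-CCI 1 to 5 and at 41.2, 38.9, 39.6, 51.5 and 46.6 CPM in sham. Both groups were narrow and did not overlap, and the log2 fold change was -0.69 ± 0.18 (edgeR adjusted p = 0.151 with 25 libraries, 0.036 with 10, 0.0673 on 9 without TD-CCI 4). Its paralog Nr4a2 was at 34.8, 38.6, 31.1, 28.2 and 26.4 CPM in TD-CCI 1 to 5 and at 44.4, 83.5, 64.6, 49.5 and 40.3 CPM in sham (-0.83 ± 0.23; -0.62 without Vehicle-sham 2). Egr3, a zinc finger transcription factor, was at 33.5, 44.5, 30.9, 37 and 37.5 CPM in TD-CCI 1 to 5 and at 56.9, 235, 55.2, 56.3 and 54.6 CPM in sham. Vehicle-sham 2 stood far above the other sham libraries, and without it the log2 fold change went from -1.32 to -0.58. Bdnf, a neurotrophin induced by activity, was at 22.9, 29.8, 22.3, 25.8 and 27.9 CPM in TD-CCI 1 to 5 and at 26.9, 77.2, 49, 48.5 and 45.2 CPM in sham. Vehicle-sham 1 lay among the TD-CCI libraries, and the log2 fold change was -0.94 ± 0.27 (edgeR adjusted p = 0.16 with 25 libraries, 0.147 with 10).

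The other gene called lower on the 10 libraries was Ano3, a membrane protein of the anoctamin family (chromosome 3, 97235671 to 97550090). It was at 149, 191, 142, 156 and 136 CPM in TD-CCI 1 to 5 and at 237, 364, 304, 308 and 292 CPM in sham, without overlap (-0.96 ± 0.23; edgeR adjusted p = 0.151 with 25 libraries, 0.0372 with 10, 0.0154 on 9 without Vehicle-sham 2, 0.0723 on 9 without TD-CCI 4). Neurod6, a transcription factor of excitatory neurons, was at 86.2, 135, 79.5, 102 and 153 CPM in TD-CCI 1 to 5 and at 158, 441, 191, 214 and 224 CPM in sham (-1.15 ± 0.26; -0.80 without Vehicle-sham 2). TD-CCI 5 came close to Vehicle-sham 1, and Vehicle-sham 2 was the highest library by far. Of 23 excitatory synapse genes 0 were higher and 9 lower at an unadjusted p under 0.05, 2 of them, Gria2 and Homer1, without overlap (median -0.36; -0.32 without Vehicle-sham 2). Gria2, the AMPA receptor subunit that blocks calcium entry, was at 972, 1004, 961, 932 and 916 CPM in TD-CCI 1 to 5 and at 1212, 2145, 1564, 1214 and 1163 CPM in sham. The scaffold Homer1 was at 78.3, 88.1, 82.2, 81.3 and 88 CPM in TD-CCI 1 to 5 and at 94.7, 208, 115, 118 and 106 CPM in sham. TD-CCI was tight in both genes, and Vehicle-sham 2 was the highest of the 10 in both. Camk2a, a kinase of the postsynaptic density, ran from 1450 to 2840 CPM in TD-CCI and from 2159 to 4801 CPM in sham, with overlap through Vehicle-sham 3. Of 12 GABA-A receptor genes 3 were lower at an unadjusted p under 0.05 (median -0.29, and -0.413 without TD-CCI 4). The alpha subunit Gabra5 was at -0.97 ± 0.25 (-0.60 without Vehicle-sham 2) and Gabra4 at -0.52 ± 0.20, the only one without overlap. Markers of CA1 neurons had a median of -0.43 and of dentate granule neurons -0.35, with 1 of 8 genes lower in each at an unadjusted p under 0.05, near the 9.66% of all genes, and 1 higher in the dentate list. The medians of other neuronal lists lay closer to 0. Interneuron markers were at 0.12 (-0.186 without TD-CCI 4), with 1 of 17 higher and 2 lower at an unadjusted p under 0.05. Markers of CA2 and CA3 neurons were at 0.0339 (-0.0721 without TD-CCI 4), with 1 of 12 higher and 4 lower. Of 19 potassium channel genes 1 was lower (median -0.1), and of 18 sodium and calcium channel genes 0 were higher and 0 lower (median -0.0561). Synaptic vesicle genes had a median of -0.2, with 3 of 20 lower.

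The size of some lower differences rested on Vehicle-sham 2. Of the 182 genes wholly below sham, 122 had their highest sham value in that library. Over all genes it was the highest of the 10 libraries in 26.5%, and the other sham libraries were in 5.55% to 10.8% each. These shares also count genes highest in a TD-CCI library, which cannot lie wholly below sham. They are thus no direct base for the 122. The lowest sham library, and not the highest, decides whether a gene lies wholly below sham. On the 10 libraries edgeR called 2 genes lower, and 7 without Vehicle-sham 2. Globin genes, of red blood cells, had a median of -1.56, which was -0.78 without Vehicle-sham 2 and -0.15 without Vehicle-sham 2 and 3, and they summed to 156 to 289 CPM in TD-CCI and 57.7 to 1810 CPM in sham. Ribosomal protein genes had a median of -0.5 (-0.18 without Vehicle-sham 2) and nuclear genes of oxidative phosphorylation -0.48 (-0.33), and 0 genes of either list lay wholly below sham. The cytochrome oxidase subunit Cox7b was at 178, 199, 142, 192 and 161 CPM in TD-CCI 1 to 5 and at 141, 1370, 522, 262 and 123 CPM in sham, and 2 sham libraries lay below the TD-CCI mean. Its log2 fold change was -1.47 with all libraries, -0.58 without Vehicle-sham 2 and 0.0099 without Vehicle-sham 2 and 3. The lower genes of smallest p included some that did not follow that library. Tmem114, a membrane protein of the claudin family, was at 0.422, 0.697, 0.587, 0.768 and 0.896 CPM in TD-CCI 1 to 5 and at 1.32, 1.59, 1.5, 1.86 and 1.8 CPM in sham (-1.26 ± 0.27; -1.24 without Vehicle-sham 2; edgeR adjusted p = 0.124 with 25 libraries, 0.0606 with 10). Dnajb13, a protein of the cilium's radial spokes, was at 14.2, 19.4, 15.3, 15.1 and 16.3 CPM in TD-CCI 1 to 5 and at 27.5, 26.2, 26.4, 30.4 and 20.8 CPM in sham (-0.71 ± 0.16; -0.69 without it). Neither gene overlapped between the groups. Of the other lower genes of smallest p, Ankrd7, R3hdm4, Enox2, Trappc2 and Klhl34 had no overlap, with log2 fold changes from -1.20 to -0.62. Vps29, Tuba8, Nop10, Lsm8 and Gabra5 overlapped, and Lsm8, a subunit of a spliceosomal ring, went from -1.26 to -0.79 without Vehicle-sham 2. The neuronal adhesion genes Cadm2 (-0.95; -0.70 without Vehicle-sham 2) and Cdh12 (-0.93; -0.68), the membrane glycoprotein Gpm6a (-0.93; -0.57), the potassium channel Kcnt2 (-1.07; -0.70) and the transcription factor Nhlh1 (-1.33; -1.23) were among those of largest difference without overlap.

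The TD-CCI libraries were not alike in the 137 higher genes. TD-CCI 1 was the highest of its group in 91 of them, TD-CCI 5 in 20, TD-CCI 4 in 15, TD-CCI 2 in 7 and TD-CCI 3 in 4. TD-CCI 4 was the lowest in 59, TD-CCI 2 in 39, TD-CCI 3 in 22, TD-CCI 5 in 12 and TD-CCI 1 in 5. Among sham libraries, Vehicle-sham 5 was the highest in 69 and Vehicle-sham 2 the lowest in 53. Shares over all genes were counted among the 10 libraries and not within a group. Vehicle-sham 2 was the lowest of the 10 in 36.5% of all genes and TD-CCI 4 in 5.41%. TD-CCI 1 was the highest of the 10 in 13.7% and Vehicle-sham 5 in 10.8%. The endothelial list did not follow the order of the TD-CCI libraries in the 137 genes. Its level was highest in TD-CCI 4, at 0.86 above the sham mean on the log2 scale, and 0.59 in TD-CCI 1. The matrix level was highest in TD-CCI 5, at 1.32, and lowest in TD-CCI 4, at 0.33.

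TD-CCI 4 was high in genes known from other brain structures, and the part of dissection in this was not tested. Shox2, a homeobox gene of the thalamus, was at 0.957, 0, 0.147, 23.5 and 0.0663 CPM in TD-CCI 1 to 5 and at 0.132, 2.79, 0.188, 0.0652 and 0 CPM in sham. Tfap2d, a transcription factor of the midbrain, was at 0.0844, 0.0317, 0.0294, 17.7 and 0.0332 CPM in TD-CCI 1 to 5 and at 0.0331, 0.74, 0.526, 0.13 and 0.118 CPM in sham. The glycine receptor subunit Glra1, of brainstem and spinal cord, was at 1.04, 0.253, 1.15, 8.73 and 2.22 CPM in TD-CCI 1 to 5 and at 0.331, 2.67, 0.376, 0.391 and 0.265 CPM in sham. TD-CCI 4 was the highest of the 10 libraries in all 3 genes, and Vehicle-sham 2 was the highest sham library. Without TD-CCI 4 the log2 fold change of Tfap2d went from 3.64 to -2.57 and that of Shox2 from 3.13 to -0.94. The Wnt effector Tcf7l2, which thalamic neurons express, and the glutamate transporter Slc17a6, chosen after its values were seen, showed the same library. Tcf7l2 was at 21.2, 16.2, 16.6, 92.4 and 15.1 CPM in TD-CCI 1 to 5, and Slc17a6 at 10.7, 13.6, 8.08, 115 and 13.6 CPM. The 11 thalamus genes summed to 114 to 411 CPM in TD-CCI and 100 to 191 CPM in sham, with a median log2 fold change of 0.73 and of 0.11 without TD-CCI 4. Pomc, the precursor of melanocortins and endorphin, was instead high in TD-CCI 1, at 78.2, 12.1, 2.17, 1.95 and 1.09 CPM in TD-CCI 1 to 5 and from 1.18 to 5.24 CPM in sham.

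**Figure D4:**
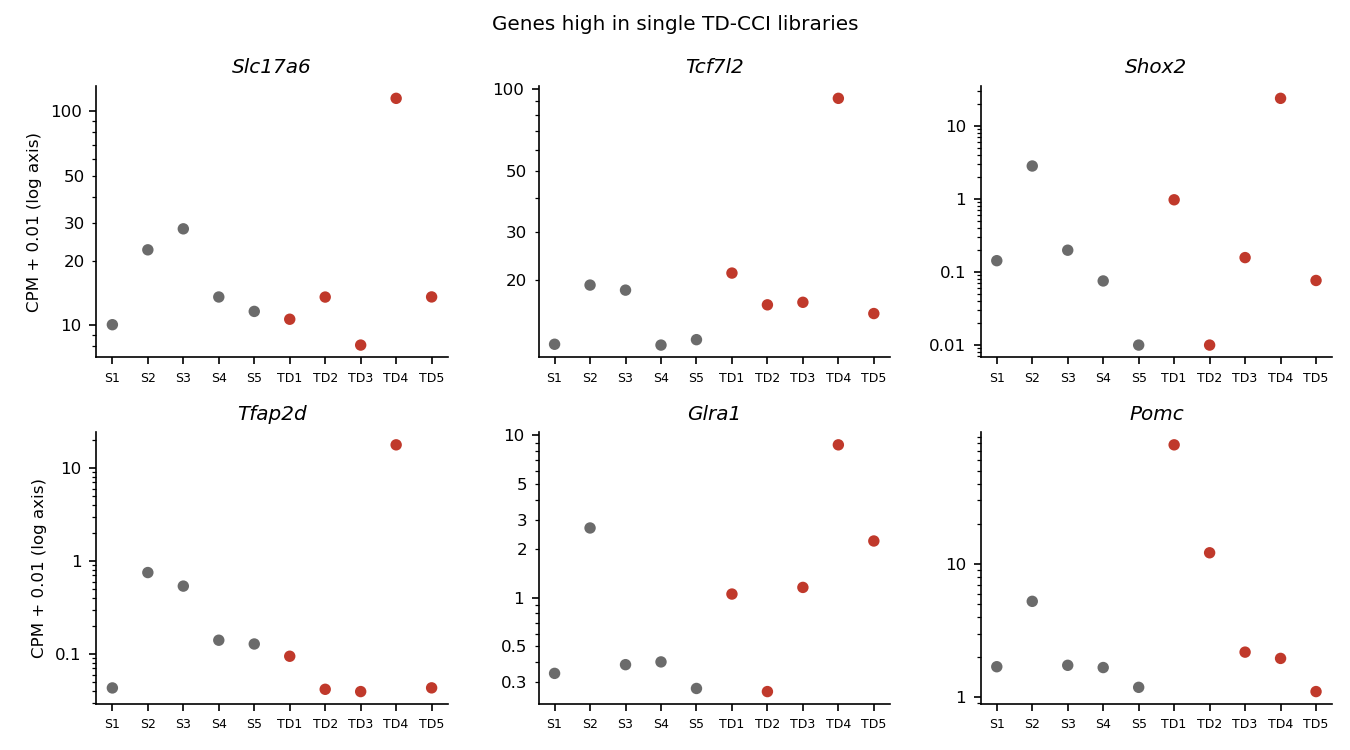
Level of 6 genes in each of the 10 libraries (CPM + 0.01, log axes), with Vehicle-sham 1 to 5 (S1 to S5) in grey and TD-CCI 1 to 5 (TD1 to TD5) in red. TD-CCI 4 is the highest in Slc17a6, Tcf7l2, Shox2, Tfap2d and Glra1, and TD-CCI 1 in Pomc.

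Set against the injury with vehicle only, no gene of TD-CCI passed, and the 5 genes of smallest p included both chains of type I collagen. In TD-CCI over Vehicle-CCI edgeR called 0 of 21064 genes (0%), with 208 higher (0.987%) and 160 lower (0.76%) at an unadjusted p under 0.05, and DESeq2 and limma voom called 0 as well. Col1a1 was at 11.4 ± 3.18 CPM in TD-CCI and 5.25 ± 1.51 CPM in Vehicle-CCI (SD, n = 5 each), and at mean levels of 7.76 CPM in TCF-CCI and 9.98 CPM in TNF-CCI. The log2 fold change of TD-CCI over Vehicle-CCI was 1.11 ± 0.25, at an edgeR unadjusted p of 0.000157 and an adjusted p of 1. Its Vehicle-CCI libraries were at 5.62, 7.48, 3.32, 4.8 and 5.03 CPM, so that Vehicle-CCI 2 lay above TD-CCI 2 alone. Col1a2 (1.32 ± 0.35), the carboxypeptidase Cpz (1.29 ± 0.34), the D-amino acid oxidase Dao (1.22 ± 0.32) and Tfap2d, which rested on TD-CCI 4, were the other genes of smallest p. Aplnr averaged 11.6 ± 6.82 CPM in TD-CCI and 3.08 ± 1.79 CPM in Vehicle-CCI (1.91 ± 0.52; edgeR adjusted p of 1). Of the 25 fibroblast and matrix genes 6 were higher and 0 lower at an unadjusted p under 0.05 in TD-CCI over Vehicle-CCI, with a median of 0.4, and of the 21 endothelial genes 4 were higher. Lists of other cells and structures departed as well at that threshold. Of 11 choroid plexus genes 6 were lower (median -1.88). Of 17 interneuron markers 4 were higher (median 0.335), and of 10 tested thalamus genes 3 were higher (median 0.361). In the microglia activation list the counts were 0 higher and 0 lower, with a median of -0.08, in complement 0 and 0 (0.13), and in reactive astrocytes 0 and 0 (0.15). Cd68 averaged 6.79 ± 2.27 CPM in TD-CCI and 7.16 ± 6.74 CPM in Vehicle-CCI, and Gfap 2769 ± 632 and 2264 ± 1013 CPM. Of the 137 genes called higher than sham on the 10 libraries, 72 had a log2 fold change above 0 in TD-CCI over Vehicle-CCI. Their median there was 0.014, against -0.0147 for all genes tested, and 8 had an edgeR unadjusted p under 0.05. These values come from the same TD-CCI libraries as the comparison with sham.

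Against the mean of the other 3 CCI groups edgeR also called 0 of 21064 genes (0%), with 238 higher (1.13%) and 88 lower (0.418%) at an unadjusted p under 0.05. The genes of smallest p were Shox2, Pomc, Tfap2d, Glra1 and Dao, of which Shox2, Tfap2d and Glra1 were highest in TD-CCI 4 and Pomc in TD-CCI 1. Dao was at 2.39, 1.01, 1.38, 3.51 and 1.49 CPM in TD-CCI 1 to 5 (1.12 ± 0.25; edgeR adjusted p = 0.427), again highest in TD-CCI 4. Fibroblast and matrix genes had a median of 0.11 in this comparison, with 6 higher at an unadjusted p under 0.05.

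**Figure D5:**
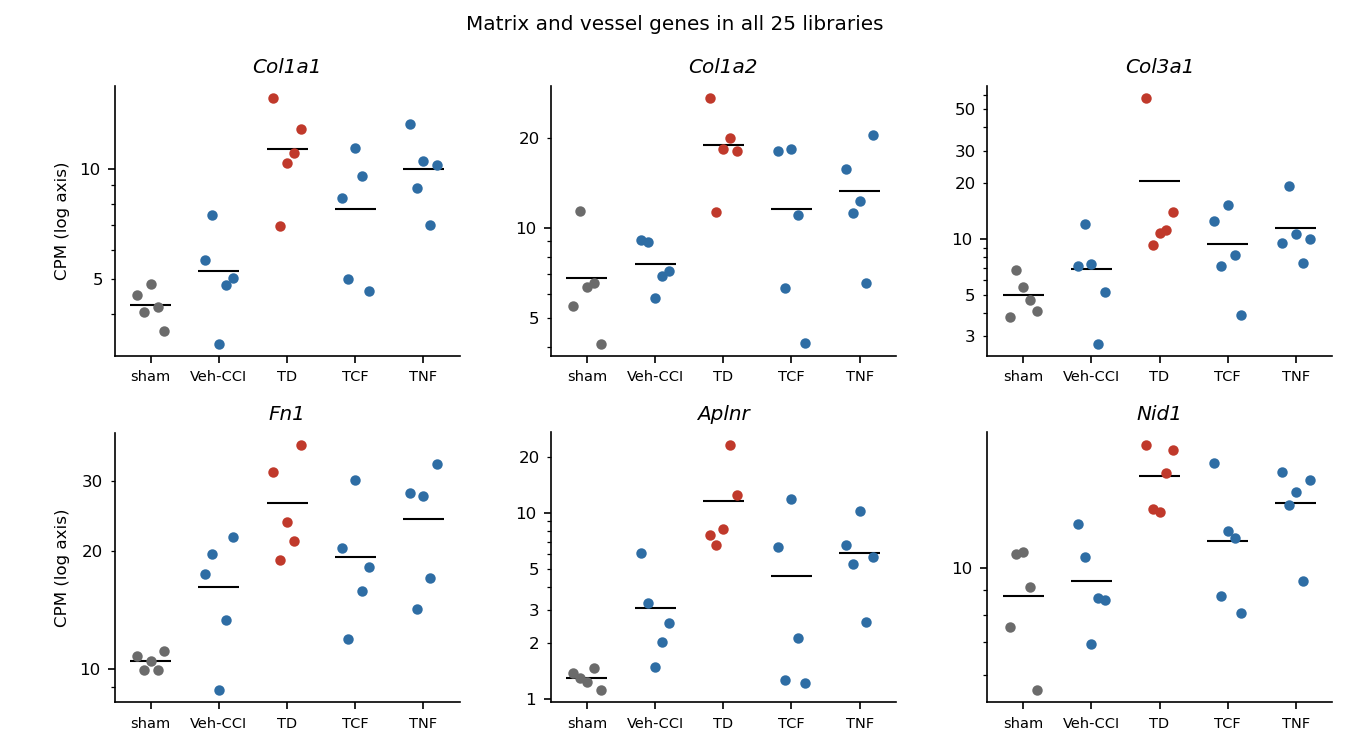
Level of 6 matrix and vessel genes in all 25 libraries (points; CPM, log axes) with group means as black lines, for Vehicle-sham (grey), TD-CCI (red) and the other CCI groups (blue). Mean Col1a1 was 4.23 CPM in Vehicle-sham, 5.25 in Vehicle-CCI, 11.4 in TD-CCI, 7.76 in TCF-CCI and 9.98 in TNF-CCI, and the TD-CCI libraries overlapped those of TCF-CCI and TNF-CCI in each of the 6 genes.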

How the data were processed

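The main table held read counts per gene, as deposited by the authors, whole numbers with nothing normalised. Per the submitters' processing notes, the build was mRatBN7.2 and the tools were featureCounts, STAR, Salmon and DESeq2, with no role stated. Whether counting used strand is not given in the sources used here, and overlapping, antisense and near-identical genes are uncertain. The authors' deposited table of TD-CCI over control held DESeq2 log2 fold changes, a mean signal per gene and p-values, per the file headers. Their log2 fold changes differed from those computed here by a median of 0.00826 (absolute) and had the same sign in 98.9% of 21064 genes.

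Of 34322 genes, 7 with empty cells were left out. The test was edgeR 4.0.16 in R 4.3.3 on all 25 libraries (TMM, filterByExpr by group, robust quasi-likelihood F test, Benjamini-Hochberg, threshold 0.05), with a mean per group. Alternatives used DESeq2 1.42.0 and limma 3.58.1, among others. Levels are CPM (per 1e6 counts) computed here. Reads carry no molecular identifiers, so depth speaks of counting error only.

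The members and the 54 gene lists were chosen with earlier results of these data known. Named genes were Gfap, Cd68 and Bdnf, the 15 of smallest p in each direction at a mean of at least 1 CPM, the 10 of largest change without overlap in each direction, the 3 of smallest p in each list, and the 5 of smallest p against the other CCI groups. Other genes were chosen after their values were seen. Not every gene that the rule names is reported here. No list was tested. The scripts were tested on simulated data. Promoter sequences are from RefSeq (GRCr8).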

Additional observations from a re-analysis of the deposited data

Results flagged for a closer look

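Within groups of 5 libraries, the values of the named genes and gene lists were searched for a single library whose gap to its nearest neighbour exceeded 0.71 of the group's range (Dixon's 95% critical value). Of 292 groups 36 did so. For independent, normally distributed values the criterion gives about 1 in 20. The groups here share libraries, and some genes, such as Shox2 and Tfap2d, were named from comparisons in which TD-CCI 4 was high. The count thus cannot be set against that rate.

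In TD-CCI, 9 of them lay in TD-CCI 4. Tfap2d was at 17.7 CPM there, next to 0.0844 in the nearest library, Shox2 at 23.5 (next 0.957), Glra1 at 8.73 (2.22), Tcf7l2 at 92.4 (21.2), Lcat at 85.4 (33.5), Aebp1 at 86.9 (57.3) and the syndecan Sdc4 at 88.2 (60.8). The level of the resting astrocyte list was 0.73 (0.733; next 0.147) and that of oligodendrocyte precursors 0.63 (0.629; next 0.239). TD-CCI 1 was the high library in Col3a1 at 57.4 CPM (next 13.9), Pomc at 78.1 (12.1), Adam33 at 6.64 (2.72), Csf1r at 137 (106) and the microglial growth factor Csf1 at 46.6 (34). TD-CCI 2 was low in Mmp14 at 9.94 CPM (next 14.7).

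In Vehicle-sham, 17 lay in Vehicle-sham 2. It was high in Neurod6 at 441 CPM (next 224), Gabra5 at 588 (293), Klhl34 at 388 (216), Egr3 at 235 (56.9), the potassium channel Kcnt2 at 199 (108), Homer1 at 207 (118), Hmgcs1 at 590 (245), the growth factor Igf1 at 23.2 (13.3) and Cp at 37.9 (20.4). Among low genes it was high in Clec7a at 2.96 CPM (0.943), Shox2 at 2.79 (0.188), Pomc at 5.24 (1.73) and Glra1 at 2.67 (0.391). It was low in Galns at 3.64 CPM (9.36) and Sema3b at 7.28 (8.97), and in the levels of the basement membrane list at -0.86 (0.163) and of oligodendrocyte precursors at -0.59 (-0.586; next 0.09). Vehicle-sham 5 was high in Gpnmb at 12.2 CPM (4.69) and C2 at 13 (6.85), Vehicle-sham 1 in Lilrb4 at 0.331 (0.114), and Vehicle-sham 3 low in the CA1 list at -0.76 (-0.756; next 0.0424).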

How the results depend on the processing

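In TD-CCI over Vehicle-sham the count of 0 genes was 1 without a filter on low counts, 2 with limma voom and sample quality weights, 263 with DESeq2 (190 higher and 73 lower), 139 with only the groups compared, 3 at a threshold of 0.1 and 1087 at 0.2. It stayed at 0 with DESeq2 size factors, a filter at 1 CPM, the library number or the mitochondrial rRNA share as a covariate, and without Vehicle-sham 2 and 3. Leaving out each library gave 0 to 2, the 2 without TD-CCI 2. On the 10 libraries, alternatives chosen after seeing the data gave 243 without Vehicle-sham 2 and 128 without TD-CCI 4. With the replicate number as a block the count was 45 (32 higher and 13 lower). The labels give no pairing, and whether the numbers pair the libraries was not tested. The correlation of same-numbered deviations over the 5 groups ran from -0.0002 to 0.229, and only number 5 correlated best with its own. TD-CCI over Vehicle-CCI gave 0 under every alternative run. TD-CCI over the other CCI groups gave 0, except 10 without a filter, 1 with the mitochondrial rRNA share, 3 at a threshold of 0.2 and 0 to 1 with libraries left out (1 without TD-CCI 5). The log2 fold change of Tfap2d was -0.39 with limma voom and -2.57 without TD-CCI 4, that of Shox2 -0.94 without TD-CCI 4 (with libraries left out in turn, -2.57 to 4.2 and -0.94 to 5.72), and that of Cox7b 0.0099 without Vehicle-sham 2 and 3, where the cause was not tested. The cause of the other differences was not tested either.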

Other observations

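Of 19 genes of motile cilia, which ependymal cells carry, 14 had a log2 fold change above 0 and 5 below (median 0.55). At an unadjusted p under 0.05, 3 were higher and 1 lower in TD-CCI over Vehicle-sham. Over all genes, 6.84% were higher and 9.66% lower at that threshold. The axonemal dynein Dnah12 was at 128, 65.9, 86.7, 48.1 and 104 CPM in TD-CCI 1 to 5 and at 52.3, 12.3, 24.4, 43.8 and 30.1 CPM in sham (1.41 ± 0.38, edgeR adjusted p = 0.151), overlapping in TD-CCI 4 and Vehicle-sham 1. TD-CCI 1, 3 and 5 had the higher list levels, at 1.1, 0.78 and 0.88 above the sham mean on the log2 scale, and TD-CCI 2 and 4 were at -0.02 (-0.018) and -0.14. Dnajb13, of the same list, was lower.

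Draxin, a secreted axon guidance protein, was at 13.7, 13.6, 21.5, 14.2 and 26.7 CPM in TD-CCI 1 to 5 and at 4.9, 5.52, 2.48, 6.52 and 5.98 CPM in sham, with every TD-CCI library above every sham library (1.82 ± 0.45; edgeR adjusted p = 0.151 with 25 libraries, 0.0144 with 10). It was the 1 of 10 neurogenesis genes to pass on the 10 libraries, and the list's median was 0.18. Card14, a scaffold of NF-kB signalling, was at 26.4, 12.8, 9.52, 3.71 and 18.3 CPM in TD-CCI 1 to 5 and at 0.926, 0.683, 1.24, 1.04 and 1.65 CPM in sham (3.65 ± 0.74; edgeR adjusted p = 0.112 with 25 libraries, 0.00611 with 10). Igsf10 (2.05 ± 0.44), Vat1 (1.26 ± 0.26) and the semaphorin Sema3b (1.06 ± 0.23) were likewise wholly above sham.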
